A study of Homo sapiens with 4 samples.

Results

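The classical protein tyrosine phosphatase genes were examined in RNAseq of T24 cells, a human bladder carcinoma line. They were taken as every gene whose symbol in the files is PTPN followed by a number, or PTPR followed by a letter and at most one digit, without pseudogenes. The rule gave 36 of the 57879 genes listed, of which 20 encode receptor-type enzymes and 16 encode non-receptor enzymes. The study asked how the catalytic domain of TET1, an enzyme that oxidizes 5-methylcytosine to 5-hydroxymethylcytosine, changes bladder cancer cells, and compared 2 libraries of cells with an empty vector (EV) with 2 libraries of cells that stably expressed this domain (TET1-CD). All 4 libraries came from the same line in RPMI with serum, and the labels call the EV libraries control. The labels give the source of the cells as "T24_induced" without saying what was induced, and they do not say whether the 2 libraries of a group came from separate cultures. The p-values therefore measure only the spread between these libraries, which may be technical. As a model, the groups are limited to 1 cell line, to stable expression from a vector with drug selection, and to a catalytic domain without the rest of the TET1 protein.

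Protein tyrosine phosphatases remove the phosphate that tyrosine kinases add, through a catalytic cysteine in a conserved domain. Receptor-type members span the membrane, and their ectodomains resemble those of adhesion molecules, whereas non-receptor members lie in the cytosol, at the endoplasmic reticulum or in the nucleus and are directed by modules such as SH2, FERM or PDZ domains. In epithelial cells they act on growth factor receptors, cell contacts and the cytoskeleton, while several members, such as CD45 and HePTP, are known mainly from blood cells.

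The estimated counts in the files were added up gene by gene and rounded, and libraries held 17442136 to 20295260 counts. TET1 itself, the check of the labels, had 111 and 83 counts with EV and 2939 and 3310 with TET1-CD, and the files do not separate the cloned domain from the endogenous transcript. EV replicates differed more among themselves than TET1-CD replicates did, with a chi-square per gene of 6.41 against 2.75. The keratins KRT7, KRT8 and KRT18 were abundant in every library, from 10759 to 22638 counts. The uroplakins UPK1A, UPK1B and UPK3A, which mark differentiated urothelium, had at most 2 counts, and KRT20 and KRT5 had 0. A further uroplakin, UPK2, had 1 and 5 counts with EV and 5 and 6 with TET1-CD. Of 14573 genes with enough counts for a test, 2865 (19.7%) passed an adjusted p of 0.05 in edgeR's quasi-likelihood test, which is the meaning of "called" in what follows. Of 12 urothelial markers, 3 were called higher in TET1-CD cells (GATA3, KRT7 and KRT18) and 0 lower. GATA3 had 19 and 19 counts with EV and 46 and 44 with TET1-CD. PPARG, with 451 and 363 counts against 403 and 461, and EPCAM, with 55 and 46 against 60 and 86, were not called.

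The phosphatase genes called were PTPN7, PTPRB and PTPRZ1, which rose in TET1-CD cells from low levels, and PTPRG, which fell by a small amount. Of the 36 genes, 28 had enough counts for the test, 14 of each type. These 4 made up 14.3% of the genes tested, close to the 19.7% of all genes, and the difference was not tested. Higher calls made up 10.0% and lower calls 9.61% of all genes tested. A fold change of at least 2 was also reached by PTPN7 and PTPRZ1, against 3.77% of all genes in either direction and 2.72% in the higher direction. Both had enough counts for the test through the TET1-CD libraries only. The normalized counts of EV and TET1-CD libraries did not overlap for 14 of the 28 genes, against 61.0% of all genes tested. The median log2 fold change over the 28 genes was 0.05, with 15 positive and 13 negative values, and over all genes tested it was 0.00095.

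Receptor-type genes gave 3 of the 4 calls (21.4% of 14), and non-receptor genes gave 1 (7.14% of 14). The median log2 fold change was 0.02 for receptor-type and 0.06 for non-receptor genes. The pooled SD of these medians between replicates was 0.08 on the log2 scale for receptor-type genes, above their median, and 0.04 for non-receptor genes, below their median. Neither median kept its sign. The non-receptor median was -0.0093 without EV replicate 2, and the receptor-type median was -0.03 with 10 counts in every library, -0.02 without EV replicate 2 and -0.01 without TET1-CD replicate 2. The share of calls and the medians of both types are descriptions, and no test of the difference between types was made.

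**Figure D1:**
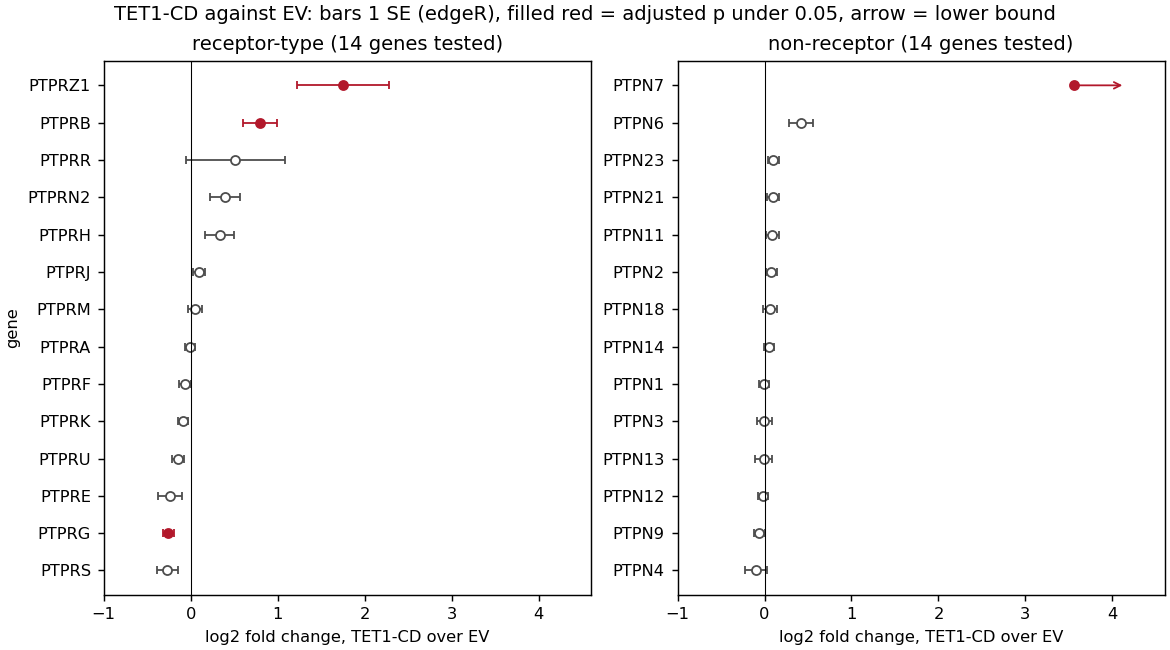
Log2 fold change of TET1-CD over EV cells for the 14 receptor-type (left) and 14 non-receptor (right) genes tested, with 1 SE from edgeR as bars and called genes filled in red. PTPRZ1, PTPRB and PTPN7 lie right of 0, PTPN7 as a lower bound of 3.56 with an arrow, PTPRG lies left of 0 at -0.25, and the open points lie between -0.27 and 0.52.

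The sequences upstream of 3 of the called genes are shown because TET1 acts on methylated cytosines at CpG dinucleotides, and these 3 genes differ in how many CpG they carry. Each is the stretch from 250 bases before to 50 after a transcription start in RefSeq on GRCh38.p14, written 5′ to 3′ on the strand of the gene, with every CpG in capitals. PTPN7 is given at its most upstream start, chr1:202160553-202160852 on the minus strand. PTPRZ1 is given at chr7:121872911-121873210 and PTPRG at chr3:61561321-61561620, both on the plus strand. A promoter of PTPRB was not used here.
PTPN7: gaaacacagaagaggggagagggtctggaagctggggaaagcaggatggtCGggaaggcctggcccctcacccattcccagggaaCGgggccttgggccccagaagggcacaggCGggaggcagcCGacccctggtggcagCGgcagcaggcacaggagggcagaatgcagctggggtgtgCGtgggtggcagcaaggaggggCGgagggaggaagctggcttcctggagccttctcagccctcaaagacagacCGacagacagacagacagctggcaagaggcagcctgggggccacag
PTPRZ1: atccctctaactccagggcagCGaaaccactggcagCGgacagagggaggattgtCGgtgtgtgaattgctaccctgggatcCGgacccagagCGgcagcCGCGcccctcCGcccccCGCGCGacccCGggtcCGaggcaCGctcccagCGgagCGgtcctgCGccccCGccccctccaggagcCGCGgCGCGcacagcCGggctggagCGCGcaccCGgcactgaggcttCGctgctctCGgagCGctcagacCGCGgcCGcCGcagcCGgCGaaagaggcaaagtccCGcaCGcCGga
PTPRG: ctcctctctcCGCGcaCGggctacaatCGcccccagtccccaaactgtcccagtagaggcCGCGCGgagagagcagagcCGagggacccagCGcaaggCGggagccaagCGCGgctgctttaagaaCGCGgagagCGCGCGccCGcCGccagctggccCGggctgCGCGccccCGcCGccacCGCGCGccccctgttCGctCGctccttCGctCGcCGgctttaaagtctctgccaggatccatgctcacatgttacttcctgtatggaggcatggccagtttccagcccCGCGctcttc

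The PTPN7 sequence held 8 CpG, and the other two RefSeq starts of PTPN7 held 8 and 4. A count of 8 or more was found in 60.7% of the 35116 promoters of the same length, whose median was 14. The PTPRZ1 sequence held 38 CpG, a number reached by 9.91% of all promoters, and the PTPRG sequence held 34, reached by 15.6%. PTPRZ1, which rose, and PTPRG, which fell, thus both carried a CpG-rich start, and PTPN7 did not. Of the 36 genes, 31 had a promoter in the RefSeq table. The median over all 49 promoters of these genes was 16, beside 14 for all promoters. Taking only the CpG-richest promoter of each gene gave a median of 33, which cannot be set beside the 14. Methylation and hydroxymethylation at these sequences are not in the files used here.

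PTPN7 encodes HePTP, a small cytosolic phosphatase with a kinase interaction motif that acts on MAP kinases and is known mainly from haematopoietic cells. It lies on the minus strand of chromosome 1 in GRCh37, from 202116141 to 202130716. The files gave 0 and 0 counts with EV and 44 and 25 counts with TET1-CD. Every TET1-CD library was above every EV library, and the values of the 2 TET1-CD libraries were themselves apart, at 2.51 and 1.27 CPM, which are counts scaled to a common library size. Against a floor of 3 counts per library in EV, the level in TET1-CD cells was at least 11.8-fold higher (adjusted p = 0.0013 in edgeR's quasi-likelihood test). This floor covers counting error only. PTPN7 had enough counts for the test through the TET1-CD libraries only, so its call is a description. Even in TET1-CD cells PTPN7 remained a weakly expressed gene, with FPKM values, which are scaled to transcript length and library size, of 1.30 and 0.49.

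The fragments of PTPN7 were assigned mainly to 1 of the 19 transcripts listed, ENST00000308986, with 35.0 and 24.6 counts in TET1-CD cells and 0 in EV. This was 79.6% and 98.2% of the gene. LGR6, the nearest protein-coding gene at higher coordinates in GENCODE on GRCh37, had at most 2 counts in any library. The leukocyte genes CD2, LCP2 and MS4A1 were at 0 in all 4 libraries, and PTPRC, which encodes CD45, the abundant receptor-type phosphatase of white blood cells, had 2 and 0 counts with EV and 2 and 0 with TET1-CD. Of 16 leukocyte markers, 10 had at most 3 counts everywhere, and the summed FPKM of the list was 26.4 and 31.2 with EV and 35.8 and 36.0 with TET1-CD. The genes CORO1A, ITGB2 and LAPTM5 rose and ITGAM fell among them, and the part of these 4 genes in the rise of PTPN7 was not tested. ITGAM, with 22 and 29 counts with EV and 3 and 8 with TET1-CD, had enough counts for the test through the EV libraries only. CD68 and CD14 had negative log2 fold changes (-0.31 and -0.47) and were not called. The call of ITGB2 was lost in DESeq2 (adjusted p = 0.103) and without TET1-CD replicate 1 (0.0724) or replicate 2 (0.140), and that of ITGAM without EV replicate 2 (0.0553), TET1-CD replicate 1 (0.172) or TET1-CD replicate 2 (0.0533). In RNA from bulk cells, fewer cells of a type and less RNA per cell cannot be told apart.

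The other genes with a kinase interaction motif were not called. PTPRR, the receptor-type relative, had 13 and 4 counts with EV and 11 and 13 with TET1-CD, and its groups overlapped. PTPN5, which encodes the neuronal enzyme STEP, had 1 count in TET1-CD replicate 1 and 0 elsewhere, which was too few for a test.

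**Figure D2:**
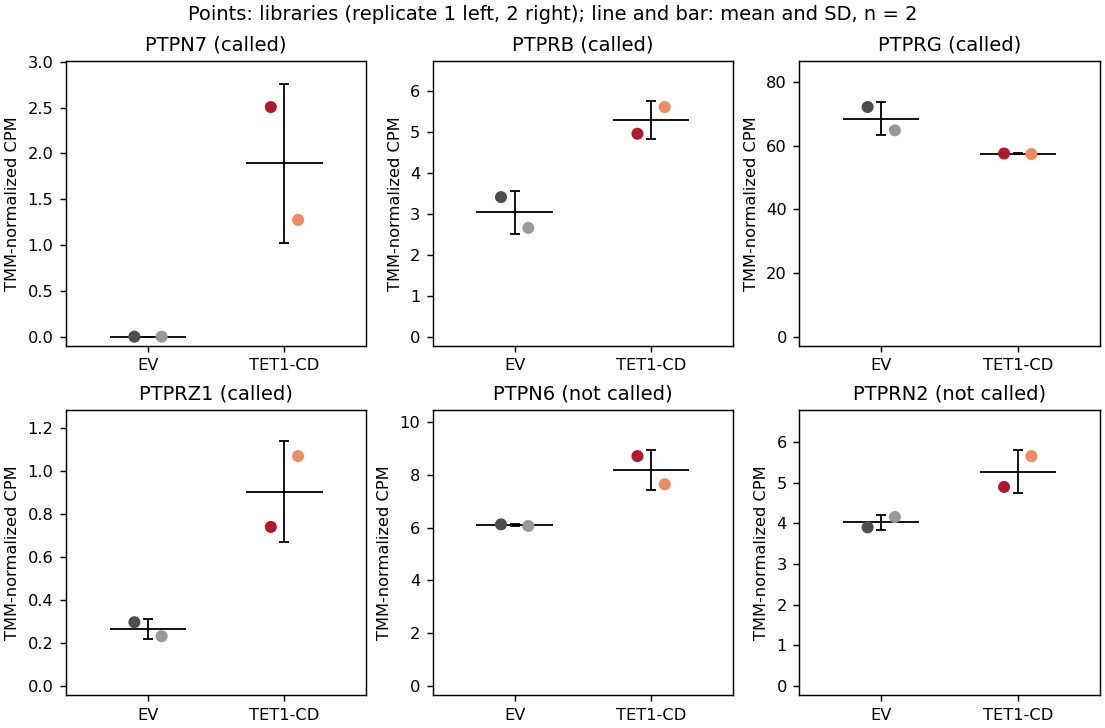
TMM-normalized CPM of the 6 phosphatase genes with the smallest p in edgeR, as points for each library with the mean and SD (n = 2) of EV and TET1-CD cells, all axes from 0. The libraries of EV and TET1-CD cells do not overlap in any panel, which follows largely from the choice by p. Over all genes tested, 61.0% did not overlap. PTPN6 and PTPRN2 are the 2 genes that were not called.

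PTPRB encodes VE-PTP, a receptor-type phosphatase with an ectodomain of fibronectin repeats that is known for its partnership with VE-cadherin and TIE2 in endothelial cells. On chromosome 12 it spans 70910630 to 71031220 on the minus strand of GRCh37. Counts were 69 and 46 with EV and 87 and 110 with TET1-CD, which is 3.03 ± 0.53 CPM (SD, n = 2) and 5.28 ± 0.46 CPM (SD, n = 2). The TET1-CD libraries were both higher than either EV library. The change was 1.73-fold, or 0.79 on the log2 scale (standard error 0.19, adjusted p = 0.0189 in edgeR). The call was lost without TET1-CD replicate 1 (adjusted p = 0.0803) or replicate 2 (adjusted p = 0.158), and in DESeq2 (adjusted p = 0.0989).

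Of the endothelial genes that VE-PTP is known with, TEK was at 0 in all libraries, and CDH5 had 9 and 10 counts with EV and 13 and 22 with TET1-CD (adjusted p = 0.221 in edgeR). Over the 7 endothelial markers found, the summed FPKM was 0.94 and 1.08 with EV and 2.24 and 2.41 with TET1-CD, with ESAM, a junction adhesion molecule, rising from 14 and 14 counts to 58 and 66. Without ESAM the sum over the other 6 was 0.56 and 0.58 with EV and 0.45 and 0.61 with TET1-CD. TIE1 had 14 and 7 counts against 6 and 9, VWF had 3 and 6 against 2 and 0, and KDR had 2 and 4 against 1 and 1. The part of these markers in the rise of PTPRB was not tested. The 3′ end of PTPRR, which lies on the same strand, is 632 bases from the start of PTPRB, and PTPRR was not called. An antisense gene that overlaps PTPRB, RP11-588H23.3, had at most 4 counts.

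The transcripts of PTPRB did not give a stable picture. ENST00000538708 took 65.9% of the gene in EV replicate 1 and less than 1 count in each of the other libraries. ENST00000261266 had 0 counts in EV replicate 1 and 35.0, 50.9 and 39.0 in EV replicate 2 and the TET1-CD replicates. ENST00000548122 separated the groups, with 0.0095 and 0 counts with EV and 18.5 and 14.0 with TET1-CD. The 2 EV libraries thus had different leading transcripts.

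**Figure D3:**
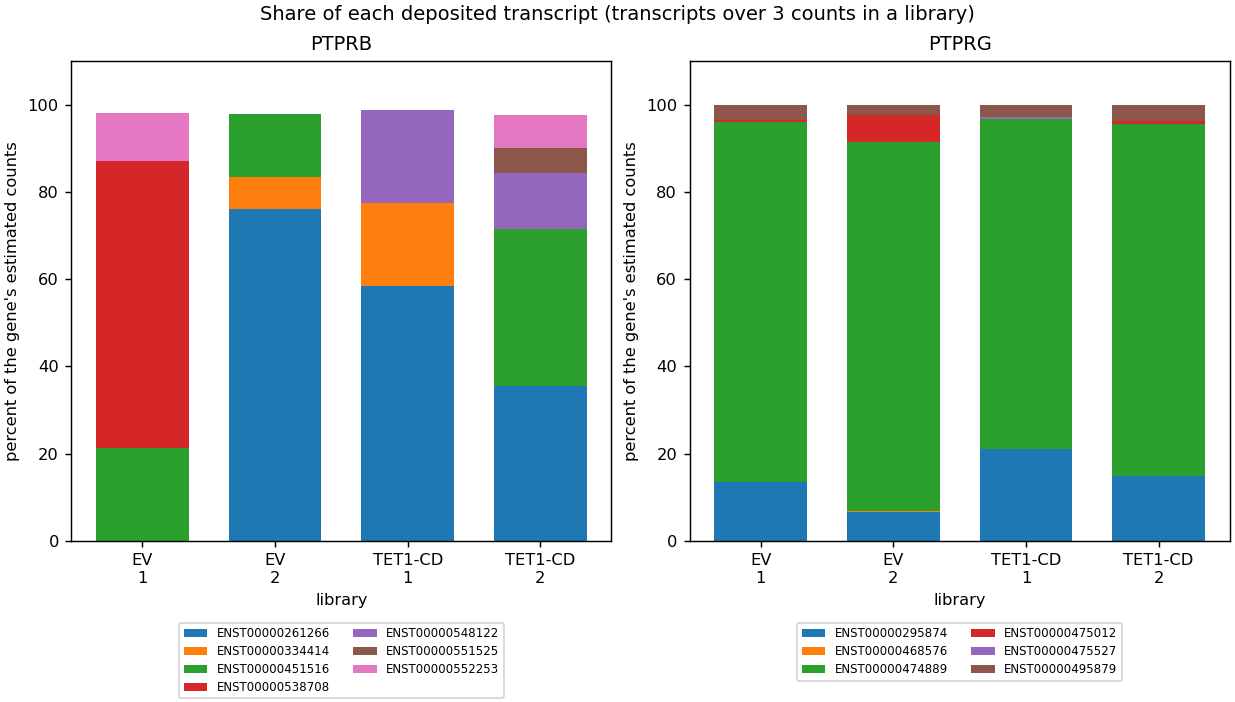
Percent of the estimated counts of PTPRB (left) and PTPRG (right) that the authors' files assign to each transcript with over 3 counts in a library, as stacked bars for the 4 libraries. ENST00000538708 leads PTPRB in EV replicate 1 only and ENST00000261266 in EV replicate 2 and TET1-CD replicate 1, while ENST00000474889 holds 75.7% to 84.6% of PTPRG in all of them.

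PTPRG and PTPRZ1 form the pair of receptor-type phosphatases with a carbonic anhydrase-like domain outside the cell, and they moved in opposite directions. PTPRG, a contactin-binding receptor described in many studies as a candidate tumour suppressor, spans bases 61547243 to 62283288 of chromosome 3 (GRCh37, plus strand). It had 1459 and 1121 counts with EV and 1009 and 1124 with TET1-CD. After scaling to library size this was 68.4 ± 5.17 CPM (SD, n = 2) and 57.4 ± 0.12 CPM (SD, n = 2), and both TET1-CD libraries were below both EV libraries. PTPRG fell by 0.25 on the log2 scale (standard error 0.07), with an adjusted p of 0.0263 in edgeR. The approximate 95% interval ran from -0.39 to -0.12. The change was small, at 1.19-fold. It was no longer called without EV replicate 1 (adjusted p = 0.0517), TET1-CD replicate 1 (0.219) or TET1-CD replicate 2 (0.204), nor in DESeq2 (0.0800).

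The leading transcript of PTPRG, ENST00000474889, had 1205 and 948 counts with EV and 764 and 906 with TET1-CD. The second, ENST00000295874, had 197 and 74.1 counts with EV and 212 and 167 with TET1-CD, with groups that overlapped. The antisense RNA PTPRG-AS1 shares 36749 bases of genomic span with PTPRG. It had 154 and 148 counts with EV and 141 and 136 with TET1-CD (adjusted p = 0.639 in edgeR). Whether strand was used in counting is not given in the sources used here, so fragments of the overlap could belong to either gene.

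PTPRZ1 is a receptor for the growth factors pleiotrophin and midkine and is known from glia and from glioma. Its gene spans bases 121513143 to 121702090 of chromosome 7 (GRCh37, plus strand). The files held 6 and 4 counts with EV and 13 and 21 with TET1-CD, so that all 4 values were low and the groups did not overlap. PTPRZ1 had enough counts for the test through the TET1-CD libraries only, so its call is a description. The level was 3.37-fold higher with TET1-CD, or 1.75 on the log2 scale (standard error 0.53, adjusted p = 0.0441 in edgeR). The approximate 95% interval ran from 0.71 to 2.79. Leaving out any library ended the call, with adjusted p of 0.0816 and 0.115 without EV replicates 1 and 2 and of 0.156 and 0.365 without TET1-CD replicates 1 and 2. The replicate block (0.0519) and DESeq2 (0.213) did so too.

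The neighbours of PTPRZ1 were far more abundant and did not rise. FAM3C, a secreted cytokine-like gene, had 1661 and 1449 counts with EV and 1235 and 1676 with TET1-CD (adjusted p = 0.519 in edgeR). AASS, a lysine-degrading enzyme gene 13611 bases away, had 467 and 378 counts with EV and 286 and 402 with TET1-CD (adjusted p = 0.117 in edgeR). Of 9 neural and neuroendocrine markers, CHGB was called, with 5 and 6 counts with EV and 24 and 25 with TET1-CD, and STMN2 was at 0. CHGB had enough counts for the test through the TET1-CD libraries only. The log2 fold change was positive for SNAP25 (0.37) and negative for SYP (-0.83), SCG2 (-0.26) and SYT1 (-0.14), and none of these was called. The call of CHGB was lost without TET1-CD replicate 1 (adjusted p = 0.112) or replicate 2 (0.0921). The summed FPKM of the list was 2.70 and 3.73 with EV and 3.67 and 4.37 with TET1-CD. The part of these markers in the rise of PTPRZ1 was not tested.

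The abundant phosphatases of T24 cells differed little between the groups. By FPKM, the 5 highest in EV cells were PTPRF, PTPN12, PTPN11, PTPN1 and PTPN9, and none of them was called with all libraries. Of the 14 genes with an EV mean FPKM of at least 10, edgeR called 0, with 0 at an unadjusted p under 0.05 and 0 called by DESeq2, and the largest log2 fold change in size was 0.15. Of the 9 genes from 2 to 10, PTPRG was the 1 called. Of the 5 tested genes under 2, 3 were called and all 5 log2 fold changes were positive. Over all genes tested, of every level, 19.7% were called, and the share of all genes within each class is not given here. The classes were set by the EV mean, which also enters the fold change. In the last class, PTPN7 and PTPRZ1 passed the filter on low counts only through the TET1-CD libraries. PTPRR, with 13 and 4 counts with EV, would not have passed on its EV libraries alone. The direction in this class and the difference between classes are therefore descriptions only.

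**Figure D4:**
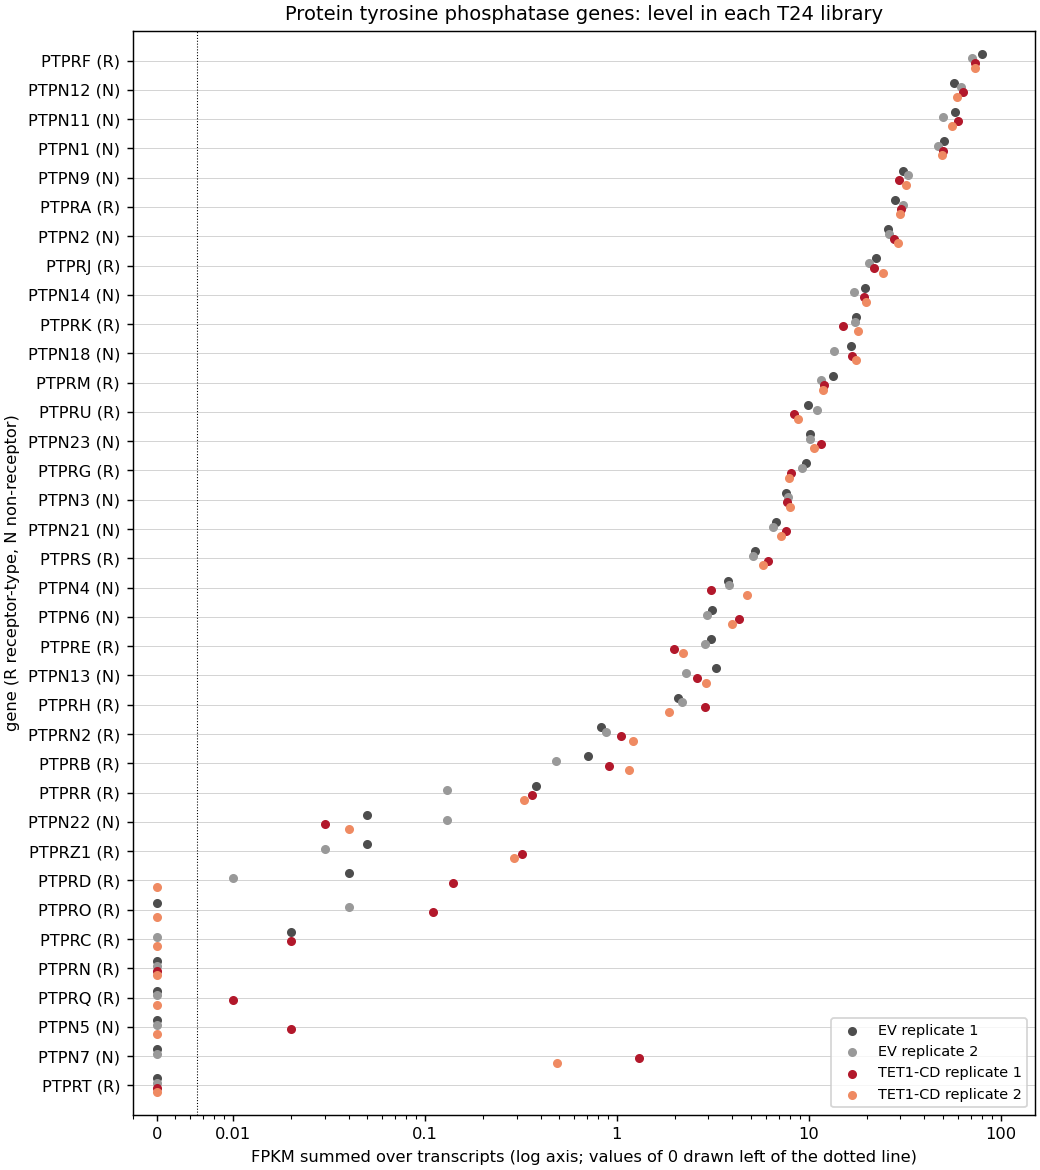
FPKM of the 36 phosphatase genes in each library on a log axis, ordered by the EV mean, with values of 0 drawn left of the dotted line. The 4 libraries nearly coincide for the genes above an FPKM of 10, and the EV and TET1-CD points stand apart for PTPN7 and PTPRZ1 near the bottom.

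PTPRF encodes LAR, a receptor-type phosphatase at cell contacts that binds heparan sulphate proteoglycans. Its FPKM was 79.6 and 70.8 with EV and 73.8 and 73.7 with TET1-CD. On counts, 10888 and 8097 with EV and 8429 and 9443 with TET1-CD, the log2 fold change was -0.06. The approximate 95% interval ran from -0.20 to 0.07. The EV libraries lay on both sides of the TET1-CD libraries. Without EV replicate 2 the value was -0.16 and PTPRF was called (adjusted p = 0.0085 in edgeR). One minor transcript, ENST00000359947, had 969 and 601 counts with EV and 392 and 508 with TET1-CD, or 8.90% and 7.42% against 4.65% and 5.38% of the gene. The main transcript, ENST00000372413, held 53.9% to 55.9% in all libraries.

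PTPN12, or PTP-PEST, which acts on cytoskeletal adaptors such as paxillin and p130Cas, had 3446 and 3062 counts with EV and 3051 and 3311 with TET1-CD. PTPN11, or SHP2, which carries signals from growth factor receptors to RAS, had 7103 and 5250 with EV and 6307 and 6612 with TET1-CD. PTPN1, or PTP1B, the phosphatase of the insulin receptor, had 3621 and 2895 with EV and 3074 and 3349 with TET1-CD. The groups of all 3 overlapped. The approximate 95% intervals of their log2 fold changes ran from -0.12 to 0.09, from -0.05 to 0.23 and from -0.11 to 0.11. None of these intervals reached a 2-fold change. The log2 fold change of PTPN11 was 0.09 with all libraries and 0.19 without EV replicate 1, when it was called (adjusted p = 0.0104 in edgeR), and PTPN11 shares 488 bases with the abundant antisense ribosomal gene RPL6. PTPN9, a phosphatase of secretory vesicles, had FPKM values of 30.8 and 32.9 with EV and 29.6 and 32.1 with TET1-CD.

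PTPN2, or TC-PTP, which dephosphorylates JAK and STAT proteins, had 1032 and 912 counts with EV and 946 and 1084 with TET1-CD. After normalization both TET1-CD libraries were just above the EV libraries, and the log2 fold change of 0.08 was not called (adjusted p = 0.444 in edgeR). PTPN14, a FERM phosphatase that binds the Hippo effector YAP, had 4355 and 3388 counts with EV and 3736 and 4197 with TET1-CD. The other FERM genes, PTPN3, PTPN4, PTPN13 and PTPN21, were not called either, and the 5 log2 fold changes of this group lay within 0.10 of 0.

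PTPN6, or SHP1, the inhibitory SH2 phosphatase best known from blood cells, had 124 and 105 counts with EV and 153 and 150 with TET1-CD. This was 6.10 ± 0.04 CPM (SD, n = 2) and 8.18 ± 0.76 CPM (SD, n = 2), and the groups did not overlap. The log2 fold change of 0.42 (standard error 0.14) did not pass the threshold (adjusted p = 0.0615 in edgeR). With no filter on low counts it did (adjusted p = 0.0441 in edgeR). By FPKM, SHP1 had 2.93 to 4.32 and its relative SHP2 49.7 to 59.8 over the 4 libraries.

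Among the adhesion-type receptors with MAM domains, which bind their like on the next cell, PTPRK had 1641 and 1414 counts with EV and 1305 and 1545 with TET1-CD and PTPRM had 1179 and 880 against 955 and 1146. PTPRU had 894 and 802 counts with EV and 696 and 822 with TET1-CD. None of these 3 was called, and PTPRT was at 0 in all libraries. PTPRJ, or DEP1, a fibronectin repeat receptor that acts on growth factor receptors, had 2295 and 1807 counts with EV and 1928 and 2411 with TET1-CD and was not called (adjusted p = 0.377 in edgeR).

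PTPRS, the other LAR relative tested, was chosen for mention after its values were seen, since its count and its FPKM differ in direction. Counts were 580 and 384 with EV and 381 and 405 with TET1-CD, a log2 fold change of -0.27 (adjusted p = 0.15 in edgeR). The FPKM, summed over transcripts of different length, was 5.27 and 5.14 with EV and 6.16 and 5.76 with TET1-CD. A direction for PTPRS therefore depends on the measure, and without EV replicate 2 the fall in counts was called (adjusted p = 0.0030 in edgeR).

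The 8 genes with too few counts for the test were PTPRC, PTPRD, PTPRN, PTPRO, PTPRQ, PTPRT, PTPN5 and PTPN22. PTPN22, a lymphocyte phosphatase linked to autoimmunity, had 2 and 6 counts with EV and 2 and 3 with TET1-CD. PTPRD had 6 and 1 counts with EV and 1 and 0 with TET1-CD. Of the 8 genes, 6 had at most 3 counts in every library, and PTPRN and PTPRT were at 0 in all 4. A count of 0 in a library allows up to 3 counts, so a low level of these genes was not detectable at this depth.

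The genes that phosphatases work with were read from 6 lists, with 89 of 110 listed genes tested. The lists were written for this purpose with earlier results of these data known. Of these, 37 were called (41.6%), 17 higher and 20 lower in TET1-CD cells, against 19.7% of all genes. Without TET1-CD replicate 1, 12 of the genes in the lists (13.3%) and 5.48% of all genes were called, and without TET1-CD replicate 2, 15 (16.9%) and 6.77% of all genes. The lists are described by their counts only, and the difference from all genes was not tested.

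Ligands and extracellular partners of the receptor-type enzymes had 14 of 17 tested genes called (82.4%), 6 higher and 8 lower, and a median log2 fold change of -0.19. HSPG2, the basement membrane proteoglycan perlecan, rose from 204 and 173 counts with EV to 358 and 483 with TET1-CD (log2 fold change 1.17, adjusted p = 0.000155 in edgeR). AGRN, the proteoglycan agrin, fell from 17295 and 15794 to 11220 and 12601 counts (-0.46, adjusted p = 0.000424 in edgeR). GPC1, a glypican, rose from 1286 and 1015 to 1466 and 1730 counts, and THBS1, the matrix protein thrombospondin that binds PTPRJ, rose from 3001 and 2372 to 4285 and 3805. Proteoglycans that can bind PTPRF and PTPRS were thus among the genes that rose and among those that fell.

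The ligands of PTPRZ1 were also named after their values were seen. PTN, which encodes pleiotrophin, had 262 and 224 counts with EV and 142 and 166 with TET1-CD, and it fell by 0.64 on the log2 scale (adjusted p = 0.0042 in edgeR). MDK, which encodes midkine, had 2232 and 2303 counts with EV and 1765 and 1969 with TET1-CD, and it fell by 0.27 on the log2 scale (adjusted p = 0.0399 in edgeR). Both ligands were therefore lower in the cells in which the receptor PTPRZ1 was higher. Their calls were less stable than their direction. That of PTN was lost without TET1-CD replicate 1 (adjusted p = 0.0564), and that of MDK without EV replicate 2 (0.0725), TET1-CD replicate 1 (0.228) or TET1-CD replicate 2 (0.210). Of the contactin genes in the list, CNTN1 had at most 2 counts.

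Intracellular partners of the receptor-type enzymes, such as the liprins and catenins, had 0 of 7 tested genes called by edgeR, against 19.7% of all genes. None had an unadjusted p under 0.05 or was called by DESeq2. With so few genes, 0 calls cannot be told apart from the share of all genes. CTNNB1, which encodes beta-catenin, was among them, with 10119 and 8551 counts with EV and 8001 and 9859 with TET1-CD.

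Docking and adaptor proteins of SHP1 and SHP2 had 6 of 15 genes called (40.0%), 2 higher and 4 lower, with a median of -0.09. SIRPA, a docking receptor for both enzymes, fell from 2536 and 2082 counts with EV to 1630 and 1799 with TET1-CD (-0.41, adjusted p = 0.000887 in edgeR). IRS2, the insulin receptor substrate, fell from 415 and 327 to 244 and 293, and GAB1, the adaptor that recruits SHP2, from 415 and 422 to 272 and 332. PXN, which encodes paxillin, rose from 6831 and 5478 to 7271 and 7918 counts. Leaving out TET1-CD replicate 1 ended the calls of IRS2, GAB1 and PXN (adjusted p = 0.152, 0.167 and 0.0960 in edgeR), and so did leaving out TET1-CD replicate 2 (0.0751, 0.0682 and 0.0511). IRS2 was not called in DESeq2 either (adjusted p = 0.0554).

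Kinases and STAT factors known as substrates had 11 of 25 genes called (44.0%), 4 higher and 7 lower, with a median of -0.07. The receptor kinase genes MET, ERBB2 and INSR fell. MET had 5293 and 4035 counts with EV and 3166 and 3686 with TET1-CD, a log2 fold change of -0.43 (adjusted p = 0.00177 in edgeR, and 0.0527 without TET1-CD replicate 1), and ERBB2 had 1924 and 1791 against 1321 and 1470. INSR, the insulin receptor on which PTPN1 acts, had 190 and 160 counts with EV and 98 and 108 with TET1-CD (-0.75, adjusted p = 0.0039 in edgeR). EGFR, another receptor kinase of this list, had 14311 and 10849 counts with EV and 11595 and 13629 with TET1-CD and was not called. ABL1, a cytoplasmic kinase, fell from 5368 and 4438 to 3743 and 4111 counts, and that call was lost without either TET1-CD library (adjusted p = 0.0835 and 0.0955).

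JAK3, a kinase of cytokine receptors, was the gene of this list with a pattern like that of PTPN7, and was singled out after its values were seen. It had 0 and 0 counts with EV and 21 and 14 with TET1-CD, at least 5.94-fold higher by the same floor. Like PTPN7, it had enough counts for the test through the TET1-CD libraries only.

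**Figure D5:**
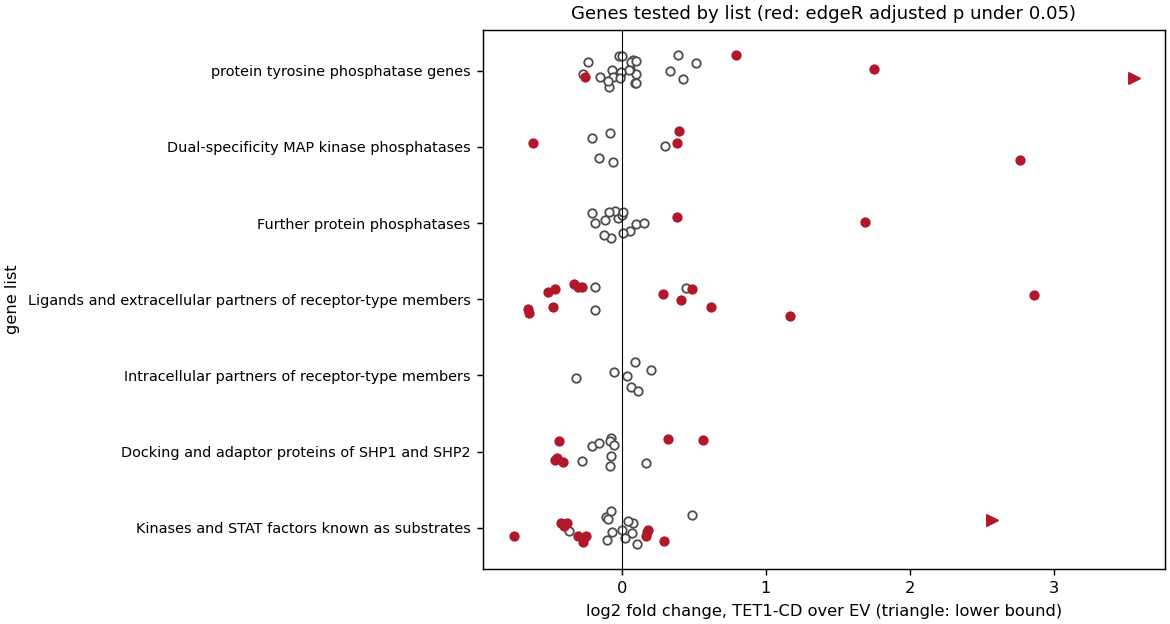
Log2 fold change of TET1-CD over EV cells for the 28 phosphatase genes and for the 89 tested genes of the 6 lists, with called genes in red, other genes open and lower bounds as triangles. The ligands and extracellular partners hold the highest share of red points (82.4%), on both sides of 0, and the 7 intracellular partners hold none. Over all genes tested the share called was 19.7%.

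Other phosphatases were read from the remaining lists. The dual-specificity phosphatases of MAP kinases had 4 of 9 genes called (44.4%), 3 higher and 1 lower. DUSP9 rose from 11 and 7 counts with EV to 66 and 56 with TET1-CD, 6.81-fold (adjusted p = 0.000523 in edgeR). DUSP1 had 1904 and 1976 counts with EV and 2445 and 2647 with TET1-CD, and DUSP5 had 571 and 566 against 711 and 762, and both rose. DUSP10 fell from 332 and 255 to 184 and 194 counts. The calls of DUSP1 and DUSP5 were lost without TET1-CD replicate 1 (adjusted p = 0.0923 and 0.134 in edgeR) or replicate 2 (0.0511 and 0.0621), and that of DUSP10 without replicate 2 (0.0632). The MAP kinase gene MAPK3, named after its values were seen, had a log2 fold change of 0.29 and was called. That call was lost without EV replicate 1 (adjusted p = 0.0742 in edgeR), TET1-CD replicate 1 (0.126) or TET1-CD replicate 2 (0.252), and in DESeq2 (0.130). PTPN7 and DUSP9 had the largest changes among the phosphatases of MAP kinases that were tested here. In both, the EV libraries alone had too few counts for the test, so this ranking is a description only.

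The last list held further phosphatases, which use a catalytic cysteine except for the EYA genes and do not all act on phosphotyrosine. It had 2 of 16 genes called (12.5%, against 19.7% of all genes). EYA2, a tyrosine phosphatase with a catalytic aspartate that also acts as a transcriptional coactivator, rose from 27 and 26 counts with EV to 74 and 96 with TET1-CD, 3.22-fold (adjusted p = 0.000962 in edgeR). CDC25A, which activates cyclin-dependent kinases, rose from 808 and 666 to 885 and 1020 counts, 1.31-fold, and was not called without TET1-CD replicate 1 (adjusted p = 0.0513 in edgeR).

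Single transcripts of the phosphatase genes were also tested, with 82 of the 413 listed having enough counts. edgeR called 0 of them, against 1 of 43213 transcripts in all (0.00231%), while 5 had an unadjusted p under 0.05, which 11.2% of all transcripts had. DESeq2 called 4 (4.88%, against 6.39% of all transcripts). These were ENST00000308986 of PTPN7, ENST00000548122 of PTPRB, ENST00000474889 of PTPRG and ENST00000359947 of PTPRF, the transcripts described above. The first 3 belong to genes called as a whole, and the direction was that of the gene in each. Transcript counts are part of the count of their gene, so this shared direction is not a separate result. The transcripts of PTPN7 and PTPRB had enough counts for the test through the TET1-CD libraries only. Transcript counts are estimates whose own error is not in the files.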

How the data were processed

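RNAseq libraries of T24 cells with EV (2) or TET1-CD (2) were analysed. Per the labels, poly(A) RNA or rRNA-depleted RNA was sequenced on a Illumina HiSeq instrument. The submitters' processing notes name cutadapt 1.9.1, HISAT2 2.0.1, HTSeq 0.6.1, DESeq2 and hg19. The authors deposited, for each of 195700 transcripts, an expected count, which is an estimated number of fragments that need not be whole, and an FPKM value. HTSeq gives whole counts, and the tool that estimated these is not given in the sources used here.

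Expected counts were summed per gene identifier and rounded, and FPKM values were summed over transcripts. Groups were compared with edgeR 4.0.16 in R 4.3.3 (glmQLFit and glmQLFTest, TMM, filterByExpr, no block), with Benjamini-Hochberg adjustment over the 14573 genes tested. Standard errors were derived from the log2 fold change and its F statistic. The 95% intervals are approximate. They use the normal quantile and not the distribution of the test, so they are somewhat too narrow. TMM factors were 0.993 to 1.005. Alternatives were DESeq2 1.42.0, limma-voom (limma 3.58.1), scaling by RLE or by library size alone, dropping the filter on low counts or asking for 10 counts in every library, a block for the replicate number, a required fold change of 2, and leaving out each library.

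The genes and lists were chosen with earlier results of these data known. PECAM1 was not found by symbol. Values are named for TET1, called genes, the 5 highest genes by FPKM, 15 genes chosen at the start, up to 4 called genes of each list by p, and neighbours of genes called at 2-fold. Some values under this rule are not reported here. Some genes named beyond this rule are marked in the report or serve as markers. Others carry no mark, namely PTPRR, PTPN5, PTPRU, PTPRD, EGFR, CTNNB1, CNTN1 and the antisense genes. CpG were counted as the letters CG, which read the same on both strands.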

Additional observations from a re-analysis of the deposited data

How the results depend on the processing

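The number of phosphatase genes called was 4 under RLE normalization, library size only and limma-voom, with the same 4 genes, and no log2 fold change of a called gene changed sign under any alternative. With no filter on low counts 5 were called, as PTPN6 was added, so that 2 non-receptor genes were higher. DESeq2 called 1, PTPN7, with 0 receptor-type genes higher and 0 lower. A minimum of 10 counts in every library removed PTPN7 and PTPRZ1 from the test and left 1 receptor-type gene higher, 0 non-receptor genes higher and PTPRG lower. A fold change of at least 2 left 1 receptor-type gene higher and 0 lower. With the replicate block 3 were called and 1 receptor-type gene was higher, since PTPRZ1 was lost, and the block changed no other call of a named gene. Whether replicate numbers pair the samples cannot be decided here, since there are only 2 pairs. Deviations of same-numbered libraries correlated at 0.0065 over all genes and at 0.05 over genes above the median. Over all genes the block called 3235 (22.2%), against 2865 (19.7%) without it. Without one library each in turn, 1 to 3 genes were higher and 0 to 3 lower, with 0 to 1 receptor-type and 1 to 2 non-receptor genes higher and 0 to 3 receptor-type genes lower. The median of the non-receptor genes ranged from -0.0093, without EV replicate 2, to 0.0899, without EV replicate 1. The genes called in the lists numbered 37, and 12 without TET1-CD replicate 1, 15 without TET1-CD replicate 2 and at most 46 without one EV library, where a group holds 1 library that is assumed to vary like the other group. Member transcripts called were 4 with DESeq2 and 1 with no filter. The bound for PTPN7 lay between 2.99 and 3.96 on the log2 scale, and it was called under all 10 alternatives that kept it. With 2 libraries a group, spread is borrowed from all genes, and genes with few counts are the least certain.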
